A study of Mus musculus with 8 samples.

Results

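Adamts1, Adamts4, Adamts5, Adamts6, Adamts9, Adamts10, Adamts17, Adamts18 and Adamts20 are 9 of the 24346 genes in the expression table, all of them members of the Adamts family of secreted proteases. The set was chosen by the high level of Adamts9 in the Med23-/- libraries, so the genotype difference of these genes is given as a description. Their calls in the fit across all genes are counted beside the share of all genes called and are not read as a test. RNA was sequenced from induced immature oligodendrocytes (iOLs), cells that had been switched from growth to differentiation for 1 day, to ask how gene expression depends on Med23, a subunit of the Mediator complex that links transcription factors to RNA polymerase. There were 4 Med23+/+ and 4 Med23-/- libraries.

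Both genotypes started as oligodendrocyte precursor cells (OPCs) from the brains of mice at postnatal day 7. Endothelial cells and microglia were depleted on lectin-coated plates and OPCs were then caught with an antibody to CD140a (Pdgfra). They were expanded with PDGF-AA at 10 ng/ml and NT-3 at 1 ng/ml, and every culture then received 15 nM T3 with 10 ng/ml CNTF for the last day. The Med23-/- cells carried Med23 fl/fl alleles and 1 copy of Olig1-Cre, which expresses the recombinase in the Olig1 lineage, and the Med23+/+ cells came from Med23 fl/fl littermates without Cre, so both genotypes carry the floxed allele and only one carries Cre. The labels do not say whether the 4 libraries of a genotype came from separate animals, so the p-values below measure only the spread between these libraries.

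Adamts proteases are zinc-dependent enzymes that are released into the extracellular space and held there by thrombospondin-type repeats. Several of them cut the lecticans, the chondroitin sulfate proteoglycans aggrecan, brevican, neurocan and versican that fill the matrix of the brain around neurons and OPCs. Others act on fibrillin microfibrils. The pro-form is trimmed by furin-like convertases, and TIMP3 and other inhibitors limit the active enzyme.

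The catalytic centre is shown because it carries the zinc site of these zinc-dependent enzymes, and it shows how the 9 genes differ there. It is a 36-base coding segment, read 5′ to 3′ from mm10, in which the capitals mark the codons of the 3 histidines that hold the zinc ion. In every gene an exon junction splits the segment, so the coordinates include the intron.
Adamts1 (chr16:85799188-85799545, minus strand): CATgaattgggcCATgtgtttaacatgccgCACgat
Adamts4 (chr1:171253210-171253918, plus strand): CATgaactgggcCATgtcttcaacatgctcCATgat
Adamts5 (chr16:85878012-85887826, minus strand): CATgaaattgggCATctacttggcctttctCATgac
Adamts6 (chr13:104352847-104366812, plus strand): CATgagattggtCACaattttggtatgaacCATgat
Adamts9 (chr6:92905282-92908493, minus strand): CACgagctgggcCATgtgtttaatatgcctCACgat
Adamts10 (chr17:33538157-33538282, plus strand): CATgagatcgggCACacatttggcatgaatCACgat
Adamts17 (chr7:66968898-67002476, plus strand): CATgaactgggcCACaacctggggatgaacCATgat
Adamts18 (chr8:113767165-113771052, minus strand): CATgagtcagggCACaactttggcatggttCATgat
Adamts20 (chr15:94353675-94355296, minus strand): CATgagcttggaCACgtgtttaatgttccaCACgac

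The junction lies after base 10 of the segment in Adamts1, Adamts4 and Adamts5 and after base 17 in the other members. The residue at position 8 of the motif, counted from the first histidine, is asparagine in Adamts1, Adamts4, Adamts9 and Adamts20 and glycine in the remaining 5. Over the 36 bases Adamts9 was identical to Adamts1 at 31 and to Adamts20 at 28, and Adamts6 to Adamts10 at 29. Adamts9 and Adamts20 encode the longest proteins of the set, with 1931 and 1906 residues in the annotated transcripts used, and the others have between 845 and 1219.

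The deposited values are FPKM, that is, fragments per kilobase of transcript scaled to the size of the library. Med23 itself was at 12.5 ± 0.225 FPKM (SD, n = 4) in Med23+/+ and 8.26 ± 0.247 in Med23-/-, a ratio of 0.658, so reads of the targeted gene were present in every Med23-/- library. The FPKM covers the whole gene and does not show the deleted exons on their own. The summed level of 8 markers of the oligodendrocyte lineage was 1877 to 2158 FPKM in Med23+/+ and 1578 to 2089 in Med23-/-. The summed level of 6 neuron markers was 31.7 to 50.8 in Med23+/+ and 65.3 to 165 in Med23-/-, with 5 of the 6 higher by adjusted p in limma and none at 0. The neuron sums of Med23-/- replicates 3 and 4, at 165 and 129, were the highest of the 8 libraries. The 6 endothelial markers summed to 0.509 to 1.19 FPKM in Med23+/+ and 1.17 to 2.97 in Med23-/-, with Pecam1, Cldn5, Cdh5, Flt1 and Tek under 1 in every library. Kdr, the endothelial marker that passed the filter, reached 2.69 and 2.11 FPKM in Med23-/- replicates 3 and 4. The 6 mural markers summed to 1.08 to 1.44 and 1.33 to 3.47, the 6 microglial markers to 0.989 to 1.71 and 1.31 to 1.76, and the 5 fibroblast markers to 1.08 to 12.6 and 3.41 to 19.9. The 6 astrocyte markers summed to 81.3 to 118 in Med23+/+ and 63.9 to 101 in Med23-/-, with 1 higher (Slc1a2) and 2 lower (Gfap and Aqp4) by adjusted p in limma. Gfap went from 13.6 ± 11.1 to 3.12 ± 2.26 FPKM and Aqp4 from 6.81 ± 2.44 to 2.34 ± 1.69, while Aldoc, the largest part of the sum, was at 50.7 ± 8.798 and 50.9 ± 10.6. The part of these cells in the values below was not tested. In bulk RNA, fewer cells of a type and less RNA per cell cannot be told apart.

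Adamts9 and Adamts20 are the long members of the family and cut versican. In Med23+/+ replicates 1 to 4 Adamts9 stood at 1.43, 1.55, 1.24 and 1.76 FPKM. In Med23-/- replicates 1 to 4 it stood at 12.3, 10.4, 13.2 and 18.9 FPKM. The lowest Med23-/- library was 5.90 times the highest Med23+/+ library, and the ratio of the means was 9.17. On the log2(FPKM + 1) scale, which understates the change of low genes, the difference was 2.53 ± 0.16 (SE), and without the added 1 the log2 of the ratio was 3.20. The difference was 2.31 between replicates 1 and 2 of the genotypes and 2.76 between replicates 3 and 4. Adamts9 covers chr6:92772699-92943492 on the minus strand of mm10, and 1805 of its exonic bases overlap the antisense genes A730049H05Rik and Gm15737. Reads were aligned at default settings, which do not use strand, so reads of a gene and of its antisense partner cannot be told apart.

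Adamts20, the other long member, known for its part in the spread of pigment cells in the skin, was at 1.68, 1.80, 1.67 and 1.64 FPKM in Med23+/+ and 1.45, 1.41, 1.37 and 1.71 in Med23-/-. The groups overlapped through Med23-/- replicate 4, and the difference was -0.12 ± 0.10.

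Adamts1, Adamts4 and Adamts5 are the short proteoglycanases. Adamts1, which cuts versican and aggrecan, stood at 1.97, 2.15, 2.05 and 2.78 FPKM in Med23+/+ and at 4.03, 3.22, 4.39 and 5.88 in Med23-/-. Every Med23-/- library was above every Med23+/+ library, with a ratio of means of 1.96 and a difference of 0.72 ± 0.15. Its gene lies at chr16:85793827-85803113, beside Adamts5 at chr16:85856173-85901828, both on the minus strand.

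Adamts5, the main aggrecanase of mouse cartilage, was at 0.348, 0.376, 0.157 and 0.158 FPKM in Med23+/+ and at 1.22, 1.38, 0.871 and 1.11 in Med23-/-. The groups did not overlap and the ratio of the means was 4.41, at low levels. With a mean of 0.703 FPKM over the 8 libraries it stayed under the limit of 1 FPKM set for the fit.

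Adamts4, an aggrecanase known to be expressed by oligodendrocytes, was at 1.68, 1.38, 2.001 and 1.42 FPKM in Med23+/+ and at 1.497, 0.978, 1.00 and 0.868 in Med23-/-. Only Med23-/- replicate 1 reached into the Med23+/+ range. The ratio of the means was 0.670 and the difference -0.33 ± 0.14, or -0.42 without that library.

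Adamts6, Adamts10 and Adamts17 are linked to fibrillin microfibrils. Adamts10, the most abundant member in Med23+/+, was at 5.05, 4.13, 4.401 and 4.54 FPKM there and at 7.22, 6.54, 5.90 and 6.80 in Med23-/-. Its libraries did not overlap between the genotypes and its spread was small, with a ratio of 1.46 and a difference of 0.46 ± 0.09. Adamts6 was at 1.36, 1.77, 1.30 and 1.17 FPKM in Med23+/+ and at 1.90, 1.84, 2.59 and 2.498 in Med23-/-. Its groups were separated by a narrow gap, with a ratio of 1.57. The Adamts6 difference was 0.42 ± 0.13 over all libraries, 0.17 between replicates 1 and 2 and 0.66 between replicates 3 and 4. Adamts17 ran the other way, at 3.68, 2.80, 4.27 and 3.44 FPKM in Med23+/+ and 1.91, 1.82, 1.85 and 1.45 in Med23-/-. It was the member whose Med23-/- libraries all lay below its Med23+/+ libraries, with a ratio of 0.495 and a difference of -0.72 ± 0.12.

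Adamts18 was at 0.302, 0.263, 0.755 and 0.635 FPKM in Med23+/+ and at 0.841, 0.566, 2.63 and 1.71 in Med23-/-. The groups overlapped, and in both genotypes replicates 3 and 4 were the high ones. Within Med23-/- the order of the libraries for Adamts18 was that of the neuron marker sum, which was 87.8, 65.3, 165 and 129 FPKM in replicates 1 to 4. Within Med23+/+ it was not, since the neuron sum was 50.8, 31.7, 32.1 and 36.1 and so highest in replicate 1, where Adamts18 was among its low values. Adamts6 had the same library order within Med23-/-, at 1.90, 1.84, 2.59 and 2.498 FPKM in replicates 1 to 4. In Med23+/+ Adamts6 was highest in replicate 2, where the neuron sum was lowest. These orders were compared after the values were seen, and a link was not tested. The mean of Adamts18, at 0.962 FPKM, left it out of the fit.

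**Figure D1:**
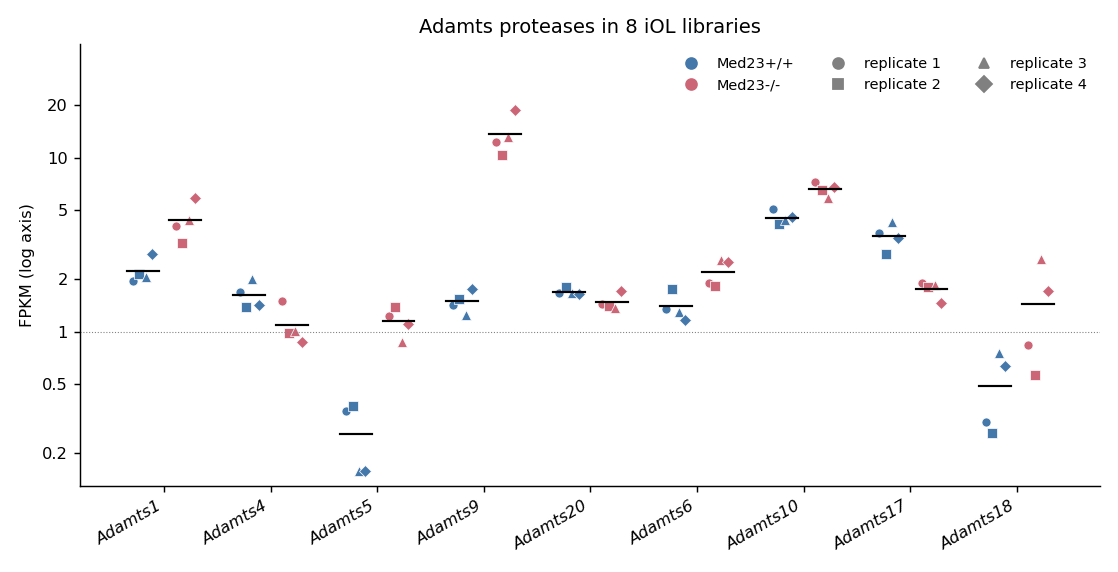
FPKM of the 9 Adamts genes (log axis) in each Med23+/+ and Med23-/- library, with 1 point per library, its shape giving the replicate, a bar at the mean of each genotype and a dotted line at 1 FPKM, the filter on the mean. Adamts9 lies between 1.24 and 1.76 FPKM in Med23+/+ and between 10.4 and 18.9 in Med23-/-, while Adamts17 is lower in Med23-/- and Adamts20 overlaps.

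The order of levels within the set differed between the genotypes. FPKM is scaled per length, so levels can be compared between genes. In Med23+/+ the means ran from Adamts10, at 4.53 ± 0.384 FPKM, through Adamts17, Adamts1, Adamts20, Adamts4, Adamts9, Adamts6 and Adamts18 to Adamts5, at 0.260 ± 0.119. The ranges of neighbours did not overlap between Adamts17 and Adamts1, between Adamts1 and Adamts20 and between Adamts6 and Adamts18, and overlapped for the other neighbours. In Med23-/- the order was Adamts9 at 13.7 ± 3.63, Adamts10 at 6.62 ± 0.553, Adamts1 at 4.38 ± 1.11, then Adamts6, Adamts17, Adamts20, Adamts18, Adamts5 and Adamts4 at 1.09 ± 0.279. Here Adamts9 and Adamts10, Adamts10 and Adamts1, and Adamts1 and Adamts6 did not overlap in range, and the ranges of all later neighbours did.

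Adamts9 made up 8.67 ± 1.40% of the summed FPKM of the 9 genes in Med23+/+ and 40.05 ± 4.15% in Med23-/-. The sum itself was 16.2 to 17.8 FPKM in Med23+/+ and 28.1 to 40.9 in Med23-/-. Without Adamts9 it was 14.7 to 16.6 and 17.8 to 22.0. Among all genes tested, 6.35% had a lower Med23+/+ mean than Adamts9 and 52.9% a lower Med23-/- mean.

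**Figure D2:**
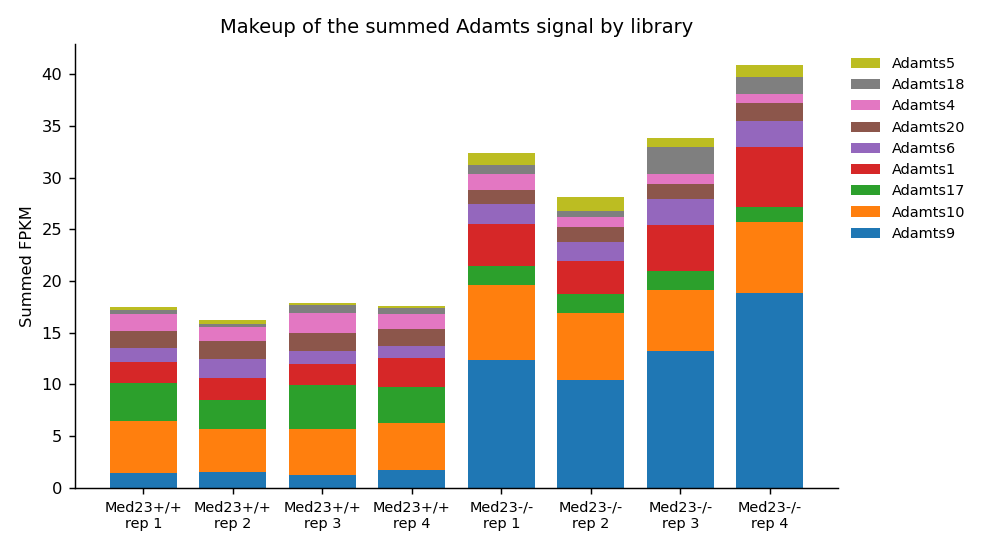
FPKM of the 9 Adamts genes stacked from 0 in each of the 8 libraries, with 1 colour per gene, so that the height of a bar is their sum. Adamts9, at the foot of each bar, makes up 8.67% of the sum on average in Med23+/+ and 40.05% in Med23-/-.

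Of the 9 members 7 passed the filter, which a gene can also pass through the group where it is high. With both limits in limma, an adjusted p below 0.05 together with more than a 2-fold change, Adamts9 was called higher and 0 members lower, where 2.98% of the 12328 genes tested were called higher and 1.75% lower. At an unadjusted p under 0.05 limma put 4 members higher and 2 lower, beside 21.1% and 20.3% of all genes. By the adjusted p alone Adamts1, Adamts6, Adamts9 and Adamts10 were higher and Adamts17 lower, beside 15.9% and 14.1% of all genes. Every Med23-/- library lay above every Med23+/+ library for 4 of the 7 and below for 1, beside 16.3% and 15.3% of all genes. Since the members were selected on this contrast, nothing is read from these counts. Leaving out Med23-/- replicates 3 and 4, the libraries with the highest neuron sums, left 1 member higher and 0 lower with both limits, while Adamts6 no longer passed the adjusted p. The 2 Med23-/- libraries that remain, at neuron sums of 87.8 and 65.3, still lie above every Med23+/+ library, so this setting does not take away the difference in neuron markers.

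The remaining Adamts proteases were mostly low. Of 10, 3 passed the filter. Adamts7, a protease of cartilage matrix and vessel wall, was higher in Med23-/-, at 1.202, 1.56, 1.36 and 1.72 FPKM in Med23+/+ and 4.73, 4.37, 3.30 and 4.47 in Med23-/-, with no overlap (log2 difference 1.08 ± 0.12, limma adjusted p = 0.000264). Adamts3, which trims procollagen and reelin, rose less, from 1.61 ± 0.243 to 2.56 ± 0.400 FPKM (0.45 ± 0.12, limma adjusted p = 0.0225). Without Med23-/- replicates 3 and 4 its limma adjusted p was 0.138. Leaving out Med23+/+ replicate 2, Med23+/+ replicate 4 or Med23-/- replicate 3 alone gave 0.0549, 0.0533 and 0.0520. With quantile normalization the log2 difference of Adamts3 was 0.28 and its limma adjusted p 0.150. Adamts13, the von Willebrand factor protease, did not pass, at 1.55 ± 0.186 and 1.47 ± 0.380 (-0.06 ± 0.14, limma adjusted p = 0.786). Adamts16, the nearest relative of Adamts18, stayed under the filter, from 0.264 to 0.417 FPKM in Med23-/- and from a listed 0 to 0.0377 in Med23+/+. The median log2 difference of the 3 tested was 0.45, beside -0.01 over all genes tested.

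Of 7 ADAMTS-like proteins, which resemble the proteases but have no protease domain, 1 passed the filter. Adamtsl3 rose from 2.93 ± 0.381 to 4.65 ± 0.251 FPKM (0.53 ± 0.10, limma adjusted p = 0.00346). Papln, also without a catalytic domain, was under the filter at 0.166 ± 0.0670 and 0.620 ± 0.297 FPKM.

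The substrates moved in both directions. Of 8 lecticans and link proteins 6 were tested, of which 2 were higher and 4 lower by adjusted p, with a median of -0.61. Of all genes tested 15.9% were higher and 14.1% lower by adjusted p, the background for this list and those below. Acan (aggrecan), at 3.56, 2.72, 5.35 and 3.21 FPKM in Med23+/+, fell to 1.10, 1.09, 1.19 and 0.671 in Med23-/-, with every Med23-/- library below the Med23+/+ libraries (-1.21 ± 0.17, limma adjusted p = 0.000871). It was the one gene of this list called with both limits. Vcan (versican), the substrate most associated with Adamts9, fell from 142 ± 6.59 to 81.5 ± 17.6 FPKM (-0.81 ± 0.14, limma adjusted p = 0.00224), and Ncan (neurocan) from 204 ± 26.0 to 139 ± 1.80 (-0.54 ± 0.10, limma adjusted p = 0.00274). Bcan (brevican) rose from 153 ± 13.3 to 207 ± 16.3 (0.44 ± 0.09, limma adjusted p = 0.00648), as did the link protein Hapln3 from 0.841 ± 0.436 to 2.29 ± 0.964 (0.82 ± 0.23, limma adjusted p = 0.0241). The libraries of Hapln3 overlapped, and its limma adjusted p was 0.0673, 0.0648 and 0.0578 without Med23+/+ replicate 3, Med23+/+ replicate 4 and Med23-/- replicate 1 in turn. Its Med23+/+ mean was under 1 FPKM, so it passed the filter through Med23-/- and its rise is a description. Vcan, Ncan and Bcan were chosen after their values were seen.

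Among 14 other reported substrates 6 were tested, with 2 higher, 2 lower and 2 past no limit by adjusted p, and a median of 0.19. Fbn2 (fibrillin-2) fell from 24.5 ± 4.52 to 7.90 ± 0.358 FPKM (-1.50 ± 0.12, limma adjusted p = 3.80e-05), the largest fall in the lists on the log2(FPKM + 1) scale. By the ratio of the means Acan fell further, to 0.273 against 0.323 for Fbn2. Fbn1 (fibrillin-1), named after its values were seen, did not pass, at 5.54 ± 0.461 and 6.87 ± 0.734 FPKM (0.26 ± 0.10, limma adjusted p = 0.0651), although it passed with replicates 1 and 2 against 3 and 4 as a covariate (limma adjusted p = 0.0243). Ltbp1, a matrix partner of TGF-beta, rose from 0.697 ± 0.230 to 2.66 ± 0.408 (1.11 ± 0.14, limma adjusted p = 0.000456). With a Med23+/+ mean under 1 FPKM it passed the filter through Med23-/-, so its call is a description.

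Of 17 genes for inhibition, activation, secretion and clearance 16 were tested, with 3 higher, 4 lower and 9 past no limit by adjusted p, and a median of -0.21. Pcsk5, a furin-like convertase, rose from 0.871, 0.859, 0.579 and 0.937 FPKM in Med23+/+ to 4.16, 4.51, 5.21 and 6.28 in Med23-/- (1.73 ± 0.13, limma adjusted p = 3.58e-05). Its Med23+/+ mean was 0.812 FPKM, so it passed the filter through Med23-/- and its call is a description. Of the other convertases listed, Pcsk6 fell from 13.6 ± 1.43 to 10.1 ± 0.464 (-0.38 ± 0.09, limma adjusted p = 0.0101). Furin did not pass, at 8.08 ± 0.938 and 9.49 ± 1.01 (limma adjusted p = 0.157). Pcsk7 did not pass either, at 9.75 ± 0.250 and 8.52 ± 0.343 (limma adjusted p = 0.0858). Timp4, an inhibitor of metalloproteases, fell from 40.8 ± 5.14 to 21.1 ± 4.07 (-0.93 ± 0.14, limma adjusted p = 0.000966). Timp3, the main tissue inhibitor of these enzymes, did not pass, at 58.6 ± 7.09 and 46.4 ± 7.37 (-0.34 ± 0.13, limma adjusted p = 0.0747). Lrp1, the endocytic receptor that clears several of them, rose from 101 ± 6.72 to 148 ± 11.0 (0.55 ± 0.08, limma adjusted p = 0.00120). Pcsk6, Furin, Pcsk7, Timp3 and Lrp1 were named after their values were seen.

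Of 18 related metalloproteases 15 were tested, with 5 higher, 2 lower and 8 past no limit by adjusted p, and a median of 0.12. Those called with both limits were Adam12, at a log2 difference of 1.35 (limma adjusted p = 0.00138), Mmp15 at 1.10 (0.00436), Mmp17 at 1.03 (0.000405) and, downward, Adam23 at -1.09 (0.000348). Adam23 is a catalytically inactive adhesion protein. Mmp17 stood at the 2-fold limit, with a log2 difference of 0.99 without Med23+/+ replicate 1 or 2, 0.96 without Med23-/- replicate 1 and 0.97 with quantile normalization. Without Med23-/- replicate 4, 1 gene of this list, Adam12, was called higher with both limits. Over all the lists other than the members, 47 of 74 genes were tested, and 15 were higher and 12 lower by adjusted p, beside 15.9% and 14.1% of all genes, with a median of 0.11 beside -0.01.

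**Figure D3:**
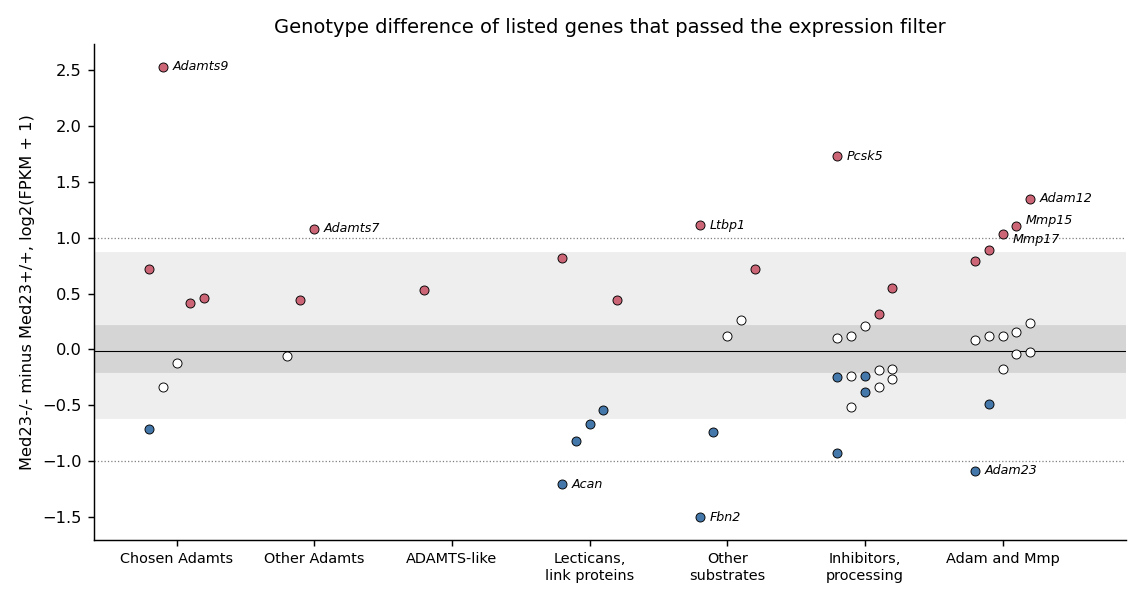
Log2 difference of FPKM + 1, Med23-/- minus Med23+/+, of the genes of each list that passed the filter, 1 point per gene. Filled points passed the adjusted p of limma upward (red) or downward (blue), the bands hold 25 to 75% and 5 to 95% of all genes tested and the dotted lines mark a fold change of 2. Adamts9 is the highest point at 2.53 and Fbn2 the lowest at -1.50.

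**Figure D4:**
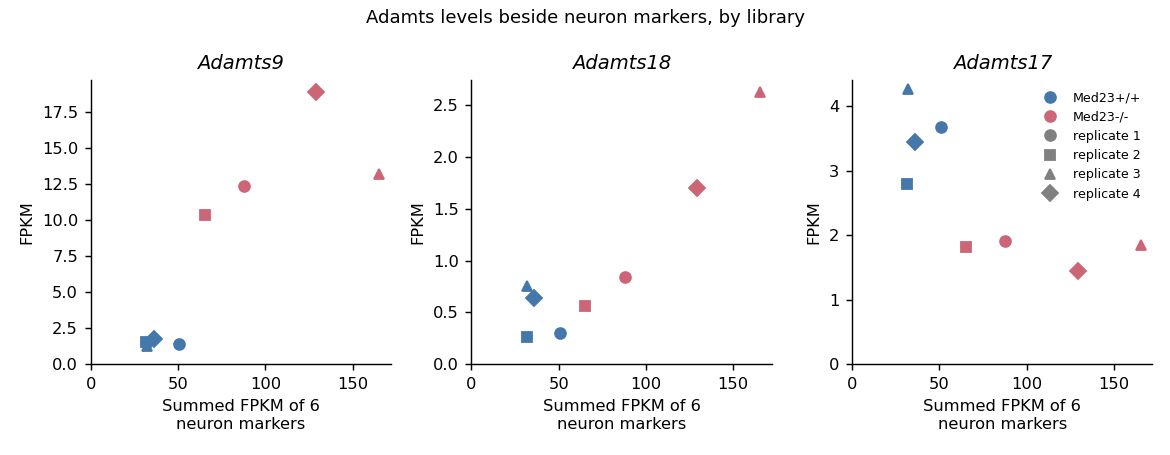
FPKM of Adamts9, Adamts18 and Adamts17 against the summed FPKM of 6 neuron markers, 1 point per library, coloured by genotype with the shape giving the replicate. The Med23-/- libraries have neuron sums of 65.3 to 165 and the Med23+/+ libraries 31.7 to 50.8, so the axis separates the genotypes.

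Genes with a profile like that of Adamts9 were sought among the 9434 tested genes that averaged 5 FPKM or more. Likeness was the mean absolute difference over the 8 libraries of log2(FPKM + 1), after the Med23+/+ mean of each gene was subtracted. The nearest were March1, a ubiquitin ligase of the endosomes, at 0.201, Tacc2 at 0.226, Rph3a, a synaptic vesicle protein, at 0.228, the transcription factor Ets1 at 0.229 and the glial transcription factor Sox9 at 0.231. Their differences between the genotypes were 2.31, 2.13, 2.23, 2.15 and 2.67, which the selection by likeness to Adamts9 fixes in direction. For Adamts4 the nearest were Asl at 0.0618, Chd3, Araf, Ppme1 and Lrfn1 at 0.0700.

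**Figure D5:**
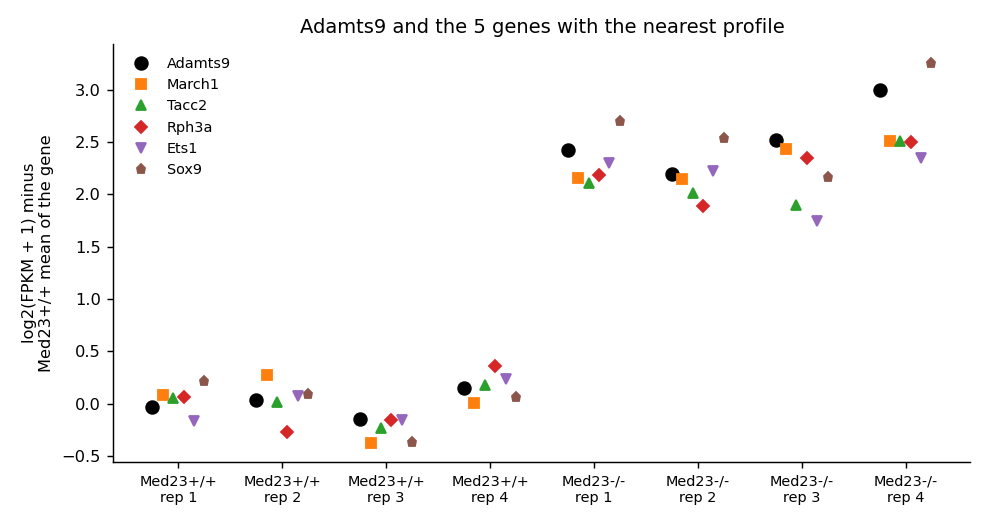
Log2(FPKM + 1) minus the Med23+/+ mean of the gene, for Adamts9 and the 5 genes with the nearest profile, in each of the 8 libraries. All 6 genes lie near 0 in Med23+/+ and near or above 2 in Med23-/-, with March1 the closest to Adamts9 at a mean distance of 0.201.

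Promoter sequence was taken from RefSeq (GRCm38.p6, the same sequence as mm10) for 5 of the 9 members, as 250 bases before the start and 50 after it. The GC box GGGCGG, the core of the sites bound by Sp1-type factors, was searched on both strands. It was found 3 times in Adamts1 and Adamts20, once in Adamts9 and Adamts18 and not in Adamts17. Of the 32851 promoters of this length compared, which do not cover every chromosome, 35.7% hold it. GC content was 64.7% in Adamts1, 70.0% in Adamts9, 55.7% in Adamts17, 66.0% in Adamts18 and 77.3% in Adamts20, beside a median of 52.7% over the promoters compared. The RefSeq window of Adamts20, at chr15:94404301-94404600 on the minus strand, lies inside the gene as GENCODE annotates it, which starts at 94465418, so the 2 annotations differ on where this gene starts. The 250 bases before the start are printed for the member highest in Med23-/- and for the member lower in every Med23-/- library, with the GC box in capitals. A match is a run of letters and not a shown binding site.
Adamts9 (chr6:92943535-92943784, minus strand): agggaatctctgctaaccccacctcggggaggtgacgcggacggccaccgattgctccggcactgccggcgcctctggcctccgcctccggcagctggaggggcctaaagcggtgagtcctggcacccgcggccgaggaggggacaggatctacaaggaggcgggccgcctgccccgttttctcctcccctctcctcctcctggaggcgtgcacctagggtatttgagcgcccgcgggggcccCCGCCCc
Adamts17 (chr7:66839485-66839734, plus strand): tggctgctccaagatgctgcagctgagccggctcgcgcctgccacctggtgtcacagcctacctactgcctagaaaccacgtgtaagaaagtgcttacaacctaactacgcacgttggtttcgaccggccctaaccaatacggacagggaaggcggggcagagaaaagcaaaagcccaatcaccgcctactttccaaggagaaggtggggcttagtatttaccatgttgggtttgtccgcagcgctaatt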

How the data were processed

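RNA was sequenced from 8 libraries, 4 per genotype. Per the labels and the study's methods, the authors trimmed the reads (Cutadapt), mapped them with default Tophat2 to mm10 and quantified genes by cuffdiff -b -u. Versions, gene annotation and library normalization are not given in the sources used here. The deposited values are FPKM per library, for 24346 genes listed by symbol, and 0 library columns were left out. The table also holds the authors' own comparison from cuffdiff, which was not used: FPKM per genotype, a log2 fold change, a test score, a p-value and a q-value for each gene, as deposited. Library depth is unknown, as no counts were used. The spacing of low values put the worth of 1 read, relative to Med23+/+ replicate 1, between 0.745 and 1.

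The 12328 genes that averaged 1 FPKM or more were tested on log2(FPKM + 1) by limma 3.58.1 (R 4.3.3), using lmFit and eBayes with a trended prior, with Benjamini-Hochberg adjustment over all of them. Calls needed an adjusted p below 0.05 and more than a 2-fold change, the latter being the limit of the study. The fit was tested on simulated data of 12328 genes, with 200 of them changed by a log2 change of 2. Of the changed genes 98.0% were recovered. They were drawn only from genes with a mean log2(FPKM + 1) of at least 2. The recovery therefore does not cover smaller changes or lower genes, among them Adamts4, Adamts6, Adamts17 and Adamts20. Gene coordinates and exon overlaps come from GENCODE vM21, on the build of the files.

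The members and the lists were chosen with earlier results of these data known. Genes named are the 9 members, Med23, the other Adamts proteases tested, up to 3 called genes per direction in each further list with the ends of its range, and the 5 nearest profiles to Adamts9 and Adamts4. Adamts16 and Papln, both under the filter, fall outside this rule and were named after their values were seen. Alternatives were another pseudocount, no filter, 2 scalings, a replicate block, a covariate for replicates 1 and 2 against 3 and 4, each library left out in turn, and the adjusted p alone.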

Additional observations from a re-analysis of the deposited data

Results flagged for a closer look

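Among 90 groups of 4 libraries examined, 2 had 1 library far from the other 3, and chance alone sets a library apart in about 1 in 20 such groups. Adamts13 in Med23+/+ was at 1.83 FPKM in replicate 1 and at most 1.48 in the others. The sum of the endothelial markers in Med23+/+ was 1.19 FPKM in replicate 1 and at most 0.623 in the others.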

How the results depend on the processing

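The log2 difference of Adamts9, the gene the set was chosen by, ran from 2.31 to 3.09 over the alternatives, which is a description and no support for its rise. Of 105 values of the 7 tested members under the alternatives, 95 kept their direction and side of the threshold, 2 (both Adamts4) passed it newly and 8 (all Adamts6) no longer passed it. Adamts6 lost its adjusted p without Med23+/+ replicate 1, 3 or 4, without Med23-/- replicate 3, 4 or both, and with quantile normalization. With a pseudocount of 0.1, 654 of all genes were called higher. By the adjusted p alone 1957 genes were higher and 1738 lower, of the members 4 higher and 1 lower, and of the listed genes 15 higher and 12 lower. Quantile normalization left 3 listed genes called higher. When each library was left out in turn, 279 to 481 genes were called higher and 200 to 228 lower, and 4 to 6 listed genes higher and 3 to 4 lower. The log2 difference of Adamts13 ranged from -0.15 to 0.033 in these fits, was 0.033 without Med23-/- replicate 4 and 0.090 without Med23-/- replicates 3 and 4, a setting added after the data were seen, and the cause was not tested. That setting gave 272 genes higher and 211 lower. The deviations of same-numbered libraries correlated at 0.13, -0.10, -0.03 and 0.16, so single libraries did not pair closely by number. The replicate numbers did carry a shared pattern. Principal component 2 of all genes tested, with 15.6% of the variance, set replicates 1 and 2 apart from 3 and 4 in both genotypes. Its scores were 28.7, 7.86, -20.8 and -18.2 in Med23+/+ and 20.4, 7.98, -12.4 and -13.5 in Med23-/-. The cause of this pattern was not tested. With this split as a covariate 371 genes were called higher and 217 lower. With the replicate block 371 genes were called higher and 216 lower, with 1 member higher and 0 lower and 6 listed genes higher and 3 lower. Under the block Adamts6 missed the adjusted p and Fbn1 passed it (limma adjusted p = 0.0396). Adamts5 and Adamts18 stayed out of the fit by the filter on the mean. With every gene above 0 in at least 1 library in the fit, Adamts5 met the adjusted p, short of a 2-fold change on that scale, and Adamts18 did not.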
